A study of Mus musculus with 6 samples.

Results

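Transcripts of the activin system were described here in primary hepatocytes from alcohol-fed mice. Hepatocytes are the main metabolic and secretory cells of the liver. The genes were the inhibin beta subunits Inhba, Inhbb, Inhbc and Inhbe, the follistatins Fst and Fstl3, the activin receptors Acvr1b, Acvr2a and Acvr2b, and the related stress hormone Gdf15. These 10 genes were taken by symbol from the 25718 gene rows of the expression table, and they were proposed because Inhbe was already known to lie among the largest differences of this experiment. Their genotype differences are therefore given as a description, without a test. The cells came from 3 WT and 3 S100a16KO+/- libraries, all from male mice of 8 to 10 weeks on a C57BL/6 background. S100a16KO+/- mice carry 1 deleted S100a16 allele, made with a floxed exon and EIIa-Cre, a Cre active in the early embryo, so the deletion is not restricted to hepatocytes. The labels name the same group S100A16 knockdown. Both genotypes received the same regime of 5 days of control liquid diet, 10 days of diet with 5% ethanol and a final gavage of 5 g per kg ethanol, 9 h before collection. All 6 libraries come from alcohol-fed mice, so every value below belongs to that state. S100a16 encodes a calcium-binding protein of the S100 family.

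Activins are dimers of inhibin beta subunits and belong to the transforming growth factor beta (TGF-β) superfamily. They bind a type II receptor (Acvr2a or Acvr2b), which recruits a type I receptor such as Acvr1b, and the complex phosphorylates SMAD2 and SMAD3. Follistatin and follistatin-like 3 bind activin A (from Inhba) and activin B (from Inhbb) outside the cell and block receptor access. Whether they bind the products of Inhbc and Inhbe was not tested here. In liver, the subunit genes Inhbc and Inhbe are expressed mainly by hepatocytes, and activin E, the dimer of the Inhbe product, acts as a liver-derived hormone on adipose tissue. Gdf15 is a distant member of the superfamily that signals through a receptor in the hindbrain and is induced by cellular stress.

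The estimated counts of a library summed to 67658095 to 71807834, and about 4 of them stood for each sequenced fragment. Up to 3 fragments, or 12 counts, remain possible behind a listed 0, which corresponds to 0.167 to 0.187 CPM (counts scaled to library size with TMM factors). This limit covers counting error only. S100a16 had 1001, 1056 and 1107 counts in WT and 433, 390 and 366 counts in S100a16KO+/- hepatocytes, 38.0% of the WT level. The summed FPKM (fragments scaled for gene length and library size) of 10 hepatocyte markers was 47396.4 to 48308.6 in WT and 46527.1 to 47302.6 in S100a16KO+/- libraries. Alb gave most of that sum, with means of 33701.2 FPKM in WT and 32702.8 FPKM in S100a16KO+/-. By edgeR's test (adjusted p under 0.05), 1 of the 10 markers rose and 3 fell, where 22.8% of all fitted genes passed. Transcripts of other cells were present too. The summed FPKM of 10 stellate cell markers was 14.8 to 15.1 in WT and 23.7 to 26.3 in S100a16KO+/-, and that of 8 endothelial markers 43.6 to 47.2 and 63.2 to 66.6. Markers of Kupffer cells gave 42.2 to 52.0 and 49.5 to 56.2, and 2 of these 7 markers rose by the same test. Those of cholangiocytes gave 1.69 to 2.40 and 2.03 to 2.50, and those of leukocytes 0.895 to 1.17 and 1.38 to 1.75. Erythroid transcripts summed to 261 to 288 FPKM in WT and 25.2 to 26.2 FPKM in S100a16KO+/- libraries. In bulk RNA, fewer cells of a type and less RNA per cell cannot be told apart.

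Of the 10 genes, 9 passed the filter on low counts and entered the fit across 15957 genes, and Fstl3 did not. In 8 of these 9 the CPM values of the genotypes did not overlap, against 37.9% of all fitted genes, with 2 genes higher and 6 lower in every S100a16KO+/- library. Fold changes of 2 or more were fitted for 4 of the 9, namely Inhbe, Gdf15, Inhba and Fst, against 7.44% of all fitted genes. Because the genes were chosen on this contrast, nothing is read from these shares. The median log2 fold change over all fitted genes was 0.006, so values below are close to differences relative to the typical gene.

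**Figure D1:**
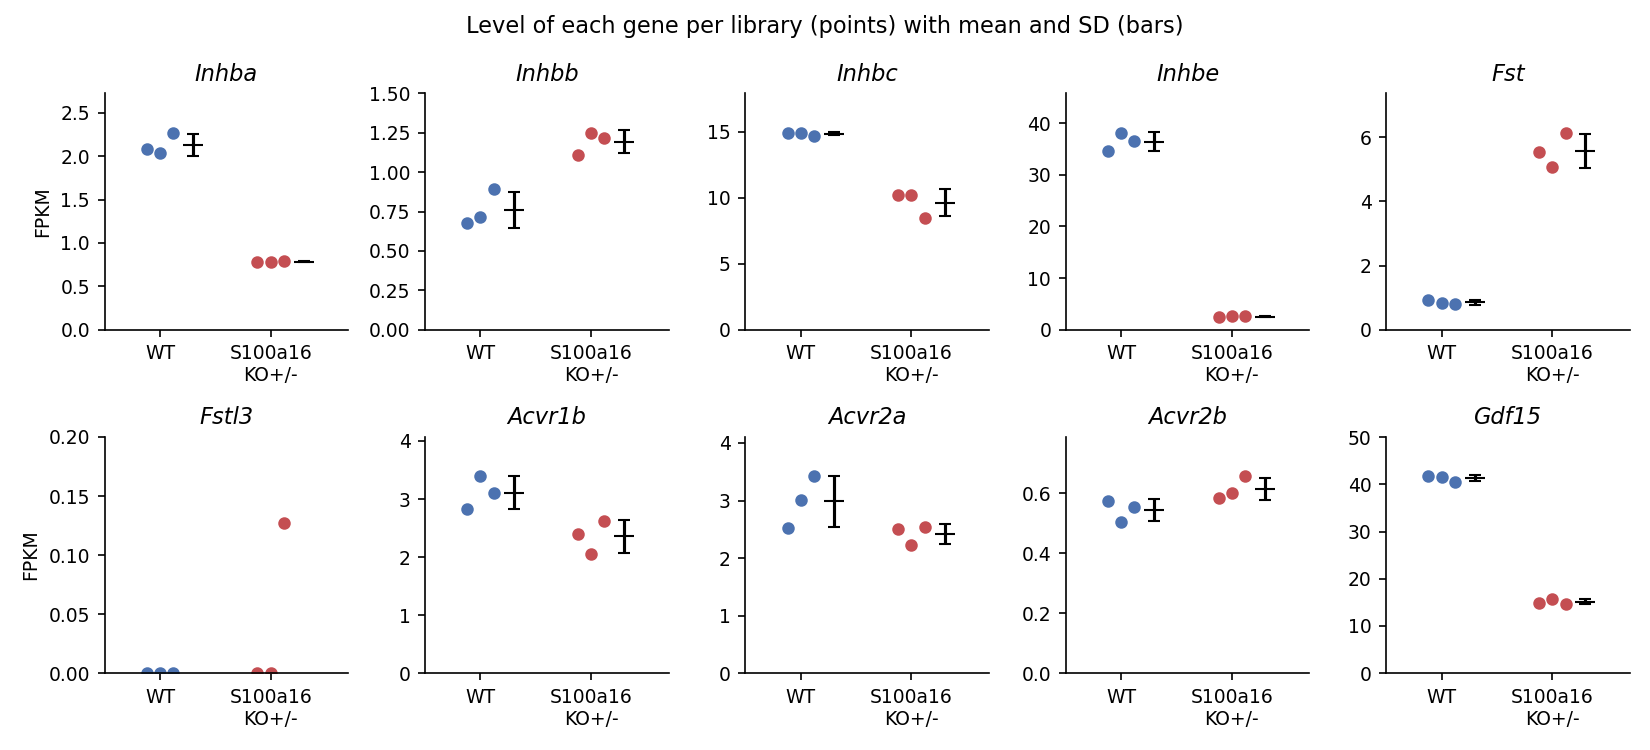
Level of each of the 10 genes in FPKM (vertical axis, from 0, scaled per gene) in the 3 WT and 3 S100a16KO+/- libraries. Points are libraries, and the black bar is the mean with SD, left out for Fstl3. Inhbe lies between 34.5 and 38.1 FPKM in WT and between 2.42 and 2.61 in S100a16KO+/-, whereas Fst lies between 0.789 and 0.919 in WT and between 5.07 and 6.14 in S100a16KO+/-.

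Among the subunits, Inhbe (ENSMUSG00000047492; GRCm38 chromosome 10, 127348857 to 127354411, minus strand) showed the widest separation. It had 14757, 15447 and 14656 counts in WT replicates 1, 2 and 3, and 977, 1047 and 1073 counts in S100a16KO+/- replicates 1, 2 and 3. Every WT library lay far above every S100a16KO+/- library, and the spread within a genotype was small beside the gap. WT hepatocytes averaged 217 ± 2.68 CPM and S100a16KO+/- hepatocytes 15.1 ± 1.11 CPM (SD, n = 3 each), 14.3-fold lower, with a log2 fold change of -3.84 (SE 0.07). On the FPKM scale, the level of Inhbe was 36.4 ± 1.82 in WT and 2.54 ± 0.104 in S100a16KO+/- hepatocytes. By level, Inhbe stood at percentile 95.0 of the fitted genes in WT and at percentile 63.7 in S100a16KO+/-. Of the 9043 fitted genes whose FPKM averaged 1 or more, 2 had a lower log2 fold change. Of the 5 erythroid markers with a row, all 5 fell by edgeR's test, against 11.2% of all fitted genes. The log2 fold changes of these markers ran from -3.57 to -0.70, the last for Alas2. Their part in the Inhbe difference was not tested.

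Inhbc (ENSMUSG00000025405; chromosome 10, 127356322 to 127370431, minus strand) encodes the beta C subunit and is the nearest gene to Inhbe on the same strand, 1910 bases upstream. The annotated gene Gm47200 spans Inhbe and overlaps an Inhbc exon on the opposite strand, and its level was too low to be tested (mean of 0.00947 CPM in WT). The counts of Inhbc were 2228, 2115 and 2060 in WT and 1436, 1437 and 1215 in S100a16KO+/- hepatocytes. The genotypes did not overlap, but the gap was much narrower than for Inhbe. The level of Inhbc was 14.9, 14.9 and 14.7 FPKM in WT replicates 1 to 3, and 10.2, 10.2 and 8.45 FPKM in S100a16KO+/- replicates 1 to 3. In CPM, S100a16KO+/- cells had 64.6% of the WT mean, with a log2 fold change of -0.63 (SE 0.09). S100a16KO+/- replicate 3 was the lowest of the 6 libraries at 16.9 CPM.

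Inhba (ENSMUSG00000041324; chromosome 13, 16011851 to 16031621, plus strand) encodes the beta A subunit, which forms activin A. It had 1073, 997 and 1092 counts in WT and 377, 381 and 393 counts in S100a16KO+/- hepatocytes. All S100a16KO+/- libraries were close to each other and below all WT libraries. The means were 15.3 ± 0.972 and 5.61 ± 0.277 CPM, or 36.7% of WT, with a log2 fold change of -1.45 (SE 0.10). At levels near 1 FPKM the scale of the values matters: with 1 added to FPKM before the logarithm, the difference for Inhba was -0.81.

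Inhbb (ENSMUSG00000037035; chromosome 1, 119415465 to 119422248, minus strand), the gene of the beta B subunit and activin B, lay in the other direction. Its counts were 233, 232 and 286 in WT and 358, 403 and 403 in S100a16KO+/- hepatocytes. The groups did not overlap, and WT replicate 3 was the WT library nearest to the others. The means were 3.63 ± 0.480 and 5.68 ± 0.556 CPM, 1.56-fold higher, with a log2 fold change of 0.65 (SE 0.15). Inhbb is also made by non-parenchymal liver cells, and stellate and endothelial marker sums were higher in the same libraries; their part in this difference was not tested.

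Read within each library, where depth cancels, the make-up of the subunit transcripts differed between genotypes. The FPKM ratio of Inhbe to Inhbc was 2.31, 2.55 and 2.49 in WT and 0.238, 0.255 and 0.309 in S100a16KO+/- libraries, so the more abundant of this pair was Inhbe in WT and Inhbc in S100a16KO+/- hepatocytes. The summed level of all 4 subunit genes was 54.1 ± 1.84 FPKM in WT and 14.1 ± 0.921 FPKM in S100a16KO+/-. Inhbe made up 67.2% ± 1.09 of that sum in WT and 18.1% ± 1.68 in S100a16KO+/- hepatocytes, and Inhbc 27.4% ± 0.982 and 67.9% ± 2.93 (SD, n = 3). The shares of Inhba and Inhbb were small in WT, at 3.94% ± 0.253 and 1.41% ± 0.199. In S100a16KO+/- hepatocytes the share of Inhbb, at 8.48% ± 0.856, was above that of Inhba, at 5.58% ± 0.434. Accordingly, the FPKM ratio of Inhba to Inhbb was 3.07, 2.86 and 2.55 in WT and 0.700, 0.629 and 0.649 in S100a16KO+/- libraries.

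**Figure D2:**
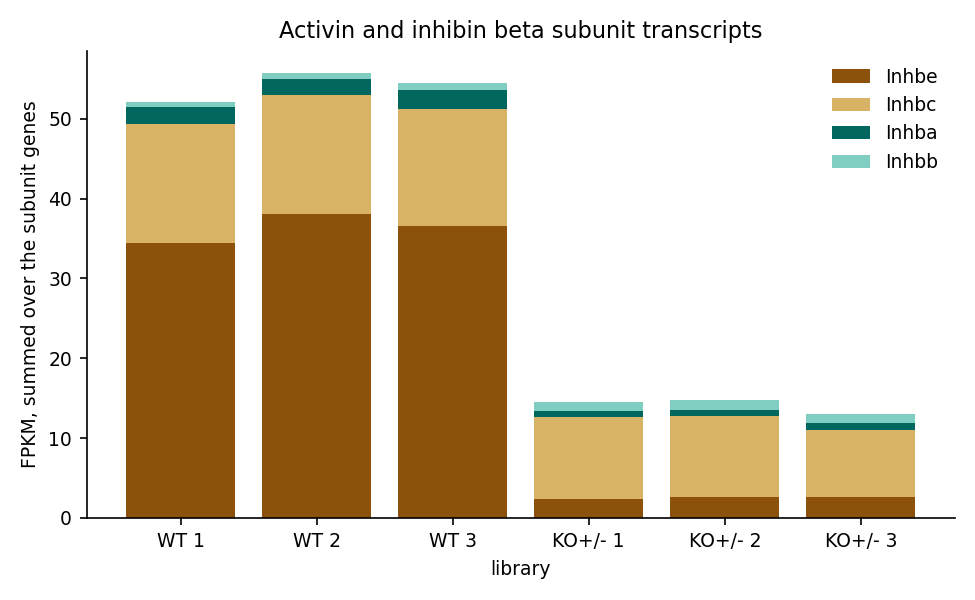
FPKM of Inhbe, Inhbc, Inhba and Inhbb stacked for each library (horizontal axis). The WT libraries sum to 52.1 to 55.7 FPKM with Inhbe as the largest part, and the S100a16KO+/- libraries to 13.1 to 14.8 FPKM with Inhbc as the largest part.

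These shares depend on the gene model behind FPKM. The deposited FPKM follows an Inhbe model of 5319 exonic bases (GENCODE), whereas the RefSeq gene covers 2211 of them, 2.41 times fewer. If all of its fragments lay in the shorter model, every Inhbe FPKM would be higher by that factor in both genotypes. Inhbe would then pass Gdf15 in the order of levels in WT hepatocytes. In S100a16KO+/- hepatocytes its mean would pass that of Fst, but their ranges over libraries would overlap. The CPM values and the log2 fold change would stay as they are.

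Follistatin (Fst, ENSMUSG00000021765, chromosome 13, 114452290 to 114458951, minus strand), a secreted protein that sequesters activins A and B, was far higher in S100a16KO+/- hepatocytes. It had 343, 296 and 275 counts in WT and 1932, 1766 and 2179 counts in S100a16KO+/- libraries. The lowest S100a16KO+/- library was well above the highest WT library. The means were 4.42 ± 0.534 and 28.5 ± 1.50 CPM, 6.46-fold higher in S100a16KO+/-, with a log2 fold change of 2.69 (SE 0.10), the 11th highest of the same 9043 genes. Fst also stood against Inhba within each library: the FPKM ratio of Fst to Inhba was 0.441, 0.410 and 0.348 in WT and 7.14, 6.46 and 7.72 in S100a16KO+/- libraries. With 1 added to FPKM before the logarithm, the Fst difference was 1.83. An exon of Fst overlaps Gm47040 on the opposite strand, and the sources used here do not give whether the counting used strand.

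The second antagonist, Fstl3 (ENSMUSG00000020325; chromosome 10, 79777272 to 79782630, plus strand), was hardly detected. Its count was 0 in all WT libraries and in S100a16KO+/- replicates 1 and 2, and 25 in S100a16KO+/- replicate 3. A difference was not detectable at this depth, and an exon of Fstl3 also overlaps Prss57 on the opposite strand. Fst was thus the follistatin that these libraries measured.

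The fitted differences of the receptors were smaller than those of the subunits. Acvr1b (ENSMUSG00000000532; chromosome 15, 101174067 to 101213684, plus strand), the type I receptor also called ALK4, had 1004, 1143 and 1036 counts in WT and 804, 690 and 893 in S100a16KO+/- hepatocytes. Its means were 15.4 ± 0.792 and 11.6 ± 0.832 CPM, with no overlap and a log2 fold change of -0.41 (SE 0.09). Acvr2a (ENSMUSG00000052155; chromosome 2, 48814109 to 48903269, plus strand), a type II receptor, had 1155, 1305 and 1464 counts in WT and 1081, 957 and 1118 in S100a16KO+/-. The means were 18.9 ± 2.27 and 15.3 ± 0.390 CPM, with a log2 fold change of -0.30 (SE 0.10). For Acvr2a the separation hung on the scaling: the groups did not overlap in CPM, but WT replicate 1 at 2.52 FPKM lay within the S100a16KO+/- range of 2.22 to 2.54 FPKM. An exon of Acvr2a overlaps Orc4 on the opposite strand, with the same doubt on strand as for Fst.

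Acvr2b (ENSMUSG00000061393; chromosome 9, 119402118 to 119434995, plus strand), the other type II receptor, was the one fitted gene whose groups overlapped. Its counts were 186, 153 and 167 in WT and 177, 183 and 202 in S100a16KO+/-, with means of 2.45 ± 0.275 and 2.74 ± 0.158 CPM and a log2 fold change of 0.16 (SE 0.18). The summed FPKM of the 3 receptor genes was 5.92, 6.90 and 7.08 in WT and 5.49, 4.88 and 5.82 in S100a16KO+/- libraries. These ranges did not overlap, though the gap between the closest libraries was narrow. Another type I receptor, Acvr1c, had no row in the expression table and is not part of this sum.

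Gdf15 (ENSMUSG00000038508; chromosome 8, 70629393 to 70632456, minus strand) had the highest deposited FPKM of the 10 genes in both genotypes. It had 6215, 5877 and 5660 counts in WT and 2096, 2212 and 2097 counts in S100a16KO+/- hepatocytes. All S100a16KO+/- libraries lay well below all WT libraries. The means were 85.7 ± 4.58 and 31.3 ± 2.79 CPM, or 36.5% of WT, and the log2 fold change of -1.46 (SE 0.07) was nearly that of Inhba.

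**Figure D3:**
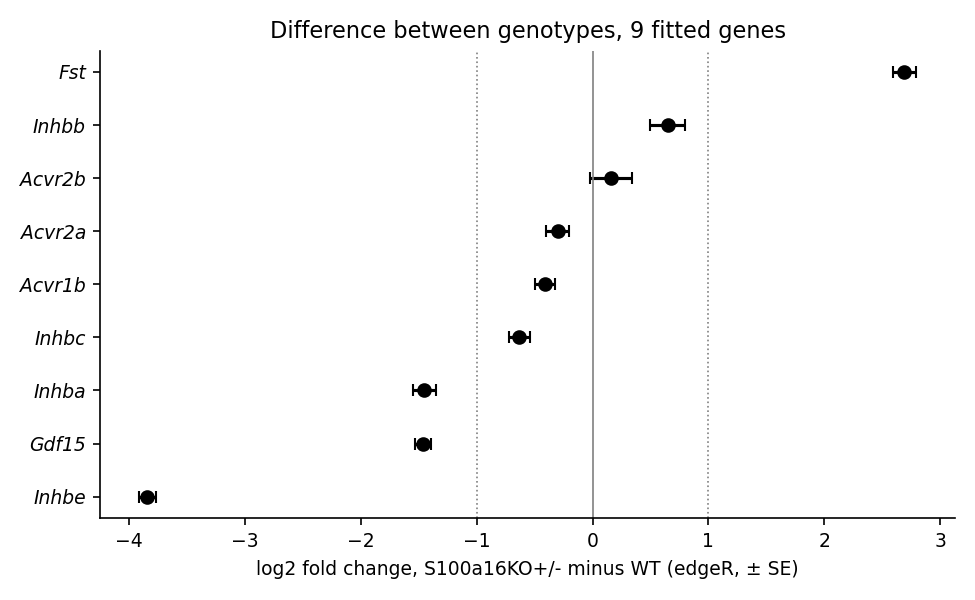
Fitted log2 fold change (horizontal axis, S100a16KO+/- minus WT) with its standard error for the 9 fitted genes; dotted lines mark a fold change of 2 either way. Inhbe at -3.84 and Fst at 2.69 lie at opposite ends, and Acvr2b at 0.16 is the gene nearest to 0.

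Ordered by FPKM, WT hepatocytes had Gdf15 (41.3), Inhbe (36.4), Inhbc (14.8), Acvr1b (3.11), Acvr2a (2.98), Inhba (2.13), Fst (0.849), Inhbb (0.761) and Acvr2b (0.545), with Fstl3 last. The ranges over libraries overlapped between Acvr1b and Acvr2a and between Fst and Inhbb, so these neighbours did not differ beyond their spread. In S100a16KO+/- hepatocytes the order was Gdf15 (15.1), Inhbc (9.61), Fst (5.58), Inhbe (2.54), Acvr2a (2.42), Acvr1b (2.36), Inhbb (1.19), Inhba (0.785) and Acvr2b (0.615). There, Inhbe, Acvr2a and Acvr1b had overlapping ranges. By the deposited FPKM, Fst had moved above Inhbe, Acvr1b and Acvr2a, and Inhbb above Inhba. Fst was above Acvr2b in both genotypes. Its place above Inhbe depends on the gene model, as described above.

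Promoter letters were looked up for 9 of the 10 genes in RefSeq (GRCm38.p6, 250 bases before to 50 after each start); Fst had no entry and Gdf15 had 2. Searched on both strands were the composite element of the stress regulators ATF4 and C/EBP (TGATGNAA), the cAMP response element (TGACGTCA), the E-box (CACGTG), the unfolded protein response element (TGACGTGG), the C/EBP palindrome (TTGCGCAA), the SMAD palindrome (GTCTAGAC), the forkhead element (TGTTTAC), the TATA box (TATAAA) and, by name, the gapped ER stress response element. Matches were found in 5 promoters, and the 30 bases around each are shown, 5′ to 3′ on the strand of the gene with the matched letters in capitals, because they are the places where the members' promoters differ in these motifs.
Inhbe, ATF4-C/EBP composite element read on the opposite strand, chr10:127352011-127352040, minus: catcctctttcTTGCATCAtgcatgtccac
Gdf15, E-box, chr8:70632161-70632190, minus: cacagggcagggCACGTGtgagcatccagt
Acvr1b, E-box, chr15:101174006-101174035, plus: ctcccgggagctCACGTGccggcgcggagc
Inhba, TATA box, chr13:16011748-16011777, plus: acaacttctaaaTATAAAtctctggcacat
Fstl3, TATA box read on the opposite strand, chr10:79777233-79777262, plus: ccgccctgggctTTTATAggccgaggcgtc
The Inhbe match begins at position -181 from the RefSeq start and lies in the longer first exon of the GENCODE model. The Gdf15 match lies within the annotated gene, in 1 of its 2 promoter entries. The other Gdf15 entry held none of these motifs. Of 32851 promoters in the table, 3.97% held the composite element, 7.15% the E-box and 13.6% the TATA box. The shares for the motifs found in none of the 10 member promoters were 1.79% for the cAMP response element, 0.676% for the unfolded protein response element, 0.119% for the ER stress response element, 0.183% for the C/EBP palindrome, 0.213% for the SMAD palindrome and 3.65% for the forkhead element. A match describes the letters only.

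The rest of the TGF-β superfamily pathway was read from 6 lists of 113 genes, of which 94 had a row and 75 were tested with edgeR's quasi-likelihood test, adjusted over all 15957 genes. Of the 75, 30 (40.0%) had an adjusted p under 0.05, against 22.8% of all tested genes. Genes that rose in S100a16KO+/- hepatocytes numbered 21 (28.0%, against 11.6% of all), and those that fell numbered 9, against 11.2% of all. The lists were chosen with earlier results of this contrast known, so these shares are a description and the p-values are not independent evidence. The median log2 fold change was 0.10. The number that fell was 3 when WT replicate 2 was left out. With the thresholds of the study, a 2-fold difference or more at an unadjusted p under 0.05, applied to the edgeR fit rather than to the DESeq2 fit that the study names, 7 rose and 1 fell, and 4.52% of all tested genes met them. Nothing in the sources says how the 3 libraries of a genotype relate to separate animals beyond the group size, so p-values measure the spread between these libraries.

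**Figure D4:**
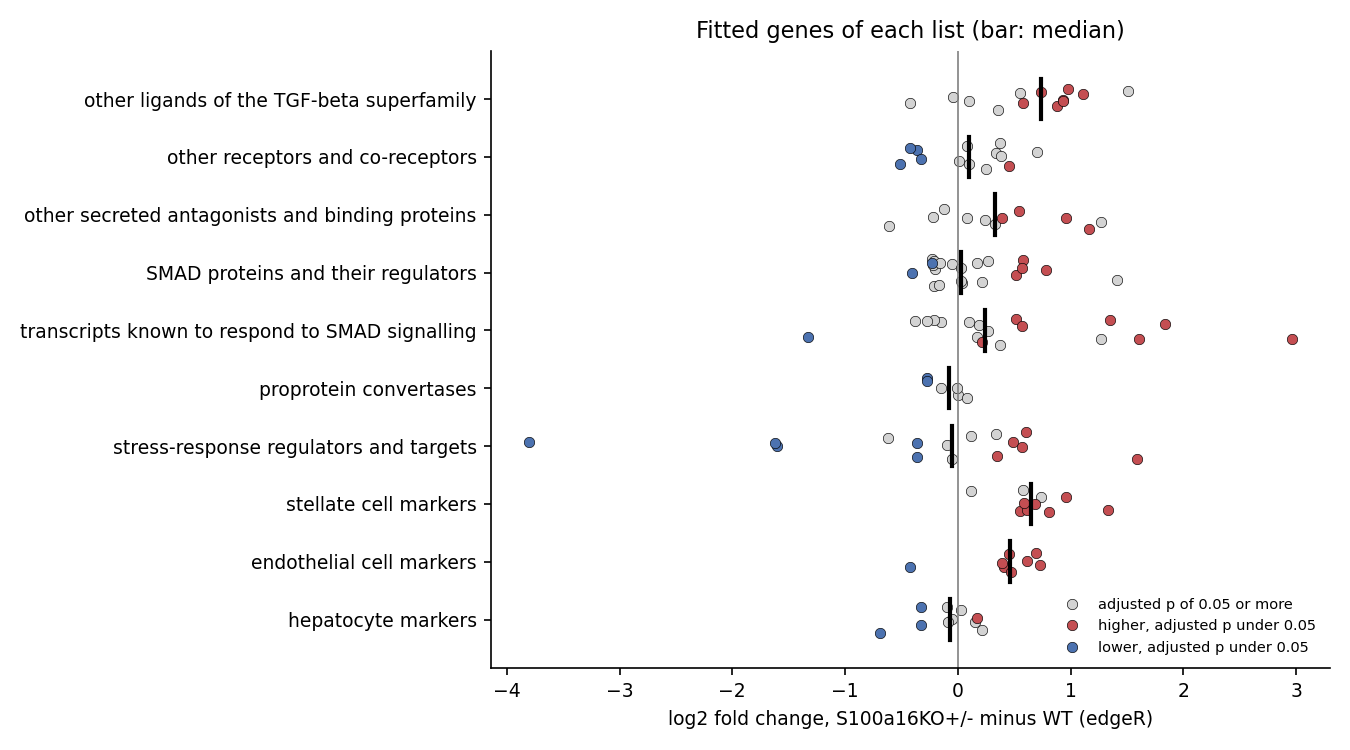
Log2 fold change (horizontal axis, S100a16KO+/- minus WT) of each tested gene in the pathway lists, the stress list and the hepatocyte, stellate and endothelial marker lists; red and blue points had an adjusted p under 0.05, grey points did not, and the black bar is the list's median. The ligand list (median 0.74) lies to the right of 0, as do the stellate (0.64) and endothelial (0.46) marker lists.

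Other ligands of the superfamily were mostly higher: 7 of 13 tested passed the test, all upwards, where 11.6% of all tested genes rose. The median of the list was 0.74. Bmp6, the hepatic iron-sensing ligand, had 350, 309 and 319 counts in WT and 630, 565 and 656 in S100a16KO+/- hepatocytes (log2 fold change 0.93, SE 0.12, edgeR adjusted p = 5.61e-05). Tgfb1, the fibrogenic cytokine, rose from 5.10 ± 0.600 to 9.41 ± 1.19 CPM (0.88, SE 0.14, edgeR adjusted p = 0.000263). Gdf2, which encodes BMP9, rose by a log2 fold change of 0.74 (SE 0.16) and Bmp2, the most abundant of the list, by 0.58 (SE 0.09). In liver these ligands are produced largely by non-parenchymal cells. Of the 10 stellate cell markers, 7 rose (median 0.64), and of the 8 endothelial markers 7 rose and 1 fell (median 0.46). The part of the marker difference in the ligand values was not tested.

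Among 13 tested receptors and co-receptors, 1 rose and 4 fell, against 11.6% and 11.2% of all tested genes. Endoglin (Eng), a co-receptor of endothelial cells, rose by a log2 fold change of 0.45 (SE 0.07, edgeR adjusted p = 0.00027). Hemojuvelin (Hjv), the hepatocyte co-receptor for BMP6 and the most abundant of the list, fell from 73.0 ± 1.75 to 51.2 ± 2.24 CPM (-0.51, SE 0.06, edgeR adjusted p = 1.35e-05). The type I receptors Bmpr1a (-0.42, SE 0.07), Acvr1 (-0.36, SE 0.11) and Tgfbr1 (-0.33, SE 0.09) fell as well, by amounts close to that of Acvr1b. The calls for Acvr1 and Tgfbr1 changed when libraries were left out. Without WT replicate 2 the edgeR adjusted p was 0.147 for Acvr1 and 0.0679 for Tgfbr1, and Acvr1 also missed the threshold without WT replicate 3 (0.0815) and without S100a16KO+/- replicate 1 (0.119) or 3 (0.0796). Tgfbr2, the type II receptor for TGF-β, had a log2 fold change of 0.08 (SE 0.07, edgeR adjusted p = 0.453), and Bmpr2 one of 0.01 (SE 0.07, edgeR adjusted p = 0.935).

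Of 11 tested secreted antagonists and binding proteins other than the follistatins, 4 passed the test, all upwards, where 11.6% of all tested genes rose. The list median was 0.33. Decorin (Dcn), a matrix proteoglycan that binds TGF-β, rose from 24.3 ± 0.993 to 47.2 ± 4.09 CPM (0.96, SE 0.07, edgeR adjusted p = 2.64e-07); it is also one of the stellate cell markers above. Ltbp4, which tethers latent TGF-β to matrix, rose by 0.54 (SE 0.09, edgeR adjusted p = 0.00056). The BMP antagonist chordin (Chrd) had a log2 fold change of 0.39 (SE 0.12, edgeR adjusted p = 0.036), and its adjusted p was 0.104 without WT replicate 1, 0.103 without WT replicate 2, 0.0771 without S100a16KO+/- replicate 2 and 0.153 without S100a16KO+/- replicate 3. The largest difference of the 4 was that of Wfikkn1, which averaged only 0.286 FPKM. It had 19, 42 and 43 counts in WT and 96, 71 and 64 in S100a16KO+/- hepatocytes (1.16, SE 0.38, edgeR adjusted p = 0.0422). All 4 fitted differences were below that of Fst.

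Inside the cell, 6 of 21 tested SMAD proteins and regulators changed, a share near the 22.8% of all tested genes, with a median of 0.03. The SMADs that carry the activin signal, Smad2 (-0.05, SE 0.11), Smad3 (-0.23, SE 0.11) and the common partner Smad4 (0.04, SE 0.09), did not pass the test (edgeR adjusted p = 0.816, 0.176 and 0.796). Smad9, a SMAD of the BMP branch, rose by 0.78 (SE 0.12), the ubiquitin ligase Nedd4l by 0.58 (SE 0.07) and the corepressor Tgif1 by 0.57 (SE 0.12). Smad5, another BMP SMAD, fell by 0.41 on the log2 scale (SE 0.11, edgeR adjusted p = 0.0139, and 0.0783 without WT replicate 2). The corepressor Ski fell by 0.23 on the log2 scale (SE 0.07, edgeR adjusted p = 0.0351), and its adjusted p was 0.0904 to 0.127 without WT replicate 1, WT replicate 2, S100a16KO+/- replicate 1 or S100a16KO+/- replicate 3. Ppm1a, a SMAD phosphatase and the most abundant of the list, had a log2 fold change of -0.16 (SE 0.06, edgeR adjusted p = 0.0755).

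Of 18 tested transcripts known to respond to SMAD signalling, 7 rose and 1 fell, against 11.6% and 11.2% of all tested genes. Hamp, the gene of the iron hormone hepcidin and a target of the BMP branch, had 6986, 5603 and 5871 counts in WT and 44289, 53483 and 44258 in S100a16KO+/- hepatocytes, a log2 fold change of 2.96 (SE 0.17, edgeR adjusted p = 0.000154). Id3 (1.61, SE 0.09) and Atoh8 (1.35, SE 0.15), which also respond to BMPs, rose with it. Klf10, an early response gene of TGF-β, fell from 36.5 ± 2.81 to 14.5 ± 2.44 CPM (-1.33, SE 0.11, edgeR adjusted p = 9.12e-07). Other targets of TGF-β rose: Ccn2, a matricellular protein gene, from 0.515 ± 0.173 to 1.85 ± 0.495 CPM (1.84, SE 0.33, edgeR adjusted p = 0.00104), and Smad7, the inhibitory SMAD, by 0.52 (SE 0.16, edgeR adjusted p = 0.0272). The Smad7 call was lost, with edgeR adjusted p of 0.0591 to 0.103, without WT replicate 1 or 2 or S100a16KO+/- replicate 1 or 3. Id1, another BMP target, had 0.19 (SE 0.16, edgeR adjusted p = 0.465).

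Activin precursors are cleaved by proprotein convertases. Furin, the main enzyme of this kind, had 10286, 11447 and 10352 counts in WT and 10536, 10822 and 10341 in S100a16KO+/- hepatocytes, with a log2 fold change of -0.00 (SE 0.06, edgeR adjusted p = 0.989). Pcsk6, the most abundant of the 6 by FPKM, had -0.01 (SE 0.06, edgeR adjusted p = 0.924). Pcsk7 and Pcsk4 each had -0.27 (SE 0.08, edgeR adjusted p = 0.0286 and 0.0314). Both calls were lost when either WT replicate 2 or WT replicate 3 was left out, with edgeR adjusted p of 0.054 and 0.152 for Pcsk7 and 0.0545 and 0.0997 for Pcsk4. Other libraries ended 1 of the calls, with 0.0649 and 0.0854 for Pcsk7 without S100a16KO+/- replicates 2 and 3, and 0.0824 and 0.121 for Pcsk4 without WT replicate 1 and S100a16KO+/- replicate 1.

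Inhbe and Gdf15 are both known to be induced by the integrated stress response, so a list of stress-response regulators and targets was read beside them. The list also holds Trp53 and Egr1, which belong to other stress responses. Of its 15 tested genes, 5 rose and 5 fell, against 11.6% and 11.2% of all tested genes, with a median of -0.05. The 5 that did not pass were Nupr1 (-0.62, SE 0.30), Chac1 (0.34, SE 0.18), Asns (-0.05, SE 0.18), Sesn2 (-0.10, SE 0.09) and Trp53 (0.12, SE 0.15). Trib3, a pseudokinase induced by ATF4 and CHOP, fell from 54.8 ± 3.52 to 17.8 ± 0.632 CPM (-1.62, SE 0.07, edgeR adjusted p = 5.46e-10), and the transcription factor Atf3 by 1.60 on the log2 scale (SE 0.14). Fgf21, a hormone secreted by hepatocytes, fell from 106 ± 11.5 to 7.64 ± 1.31 CPM (-3.80, SE 0.13, edgeR adjusted p = 9.01e-08), about as much as Inhbe. Several genes of the list lay the other way: Eif2ak3, the gene of the ER stress kinase PERK, rose by 1.59 (SE 0.10), Ddit3, which encodes CHOP, by 0.60 (SE 0.09), Ppp1r15a by 0.57 (SE 0.09), Cebpb by 0.49 (SE 0.09), and Atf4, whose product is the central factor of this response, by 0.35 (SE 0.06, edgeR adjusted p = 0.000366). Egr1 and Atf5 each fell by 0.36 on the log2 scale, and Atf5 was the most abundant of the list.

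The genes most like Inhbe across the 6 libraries were found by the root mean square difference between centred log2(CPM + 1) profiles, over the 9042 other genes at that level. The nearest was Angptl8, a hepatocyte-secreted regulator of lipoprotein lipase, at a difference of 0.0657; it went from 134 ± 6.13 to 8.37 ± 0.421 CPM. Next were Fgf21 (0.148) and G0s2 (0.228), an inhibitor of the lipase ATGL that went from 191 ± 2.37 to 18.3 ± 1.76 CPM. The globin genes Hba-a2 (0.264) and Hba-a1 (0.279) followed. All share the low S100a16KO+/- level by which Inhbe was chosen, and the ranking is a description over libraries of 2 genotypes.

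Around Inhbe and Inhbc, 13 other gene rows lay within 100 kb, of which 8 were tested and 2 passed the test, a share near the 22.8% of all tested genes. Ddit3 was higher, as above (edgeR adjusted p = 0.000196), and Mbd6, a methyl-CpG-binding domain gene, fell by 0.22 on the log2 scale (SE 0.07, edgeR adjusted p = 0.0347). The Mbd6 call was lost, with edgeR adjusted p of 0.0986 to 0.121, without WT replicate 1, WT replicate 2, S100a16KO+/- replicate 1 or S100a16KO+/- replicate 3. Mars1, which lies between Ddit3 and Inhbe, had -0.14 (SE 0.10, edgeR adjusted p = 0.391), and R3hdm2, on the other side of Inhbc, had -0.09 (SE 0.06, edgeR adjusted p = 0.315). The other tested neighbours had log2 fold changes between those of Mbd6 and Ddit3.

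**Figure D5:**
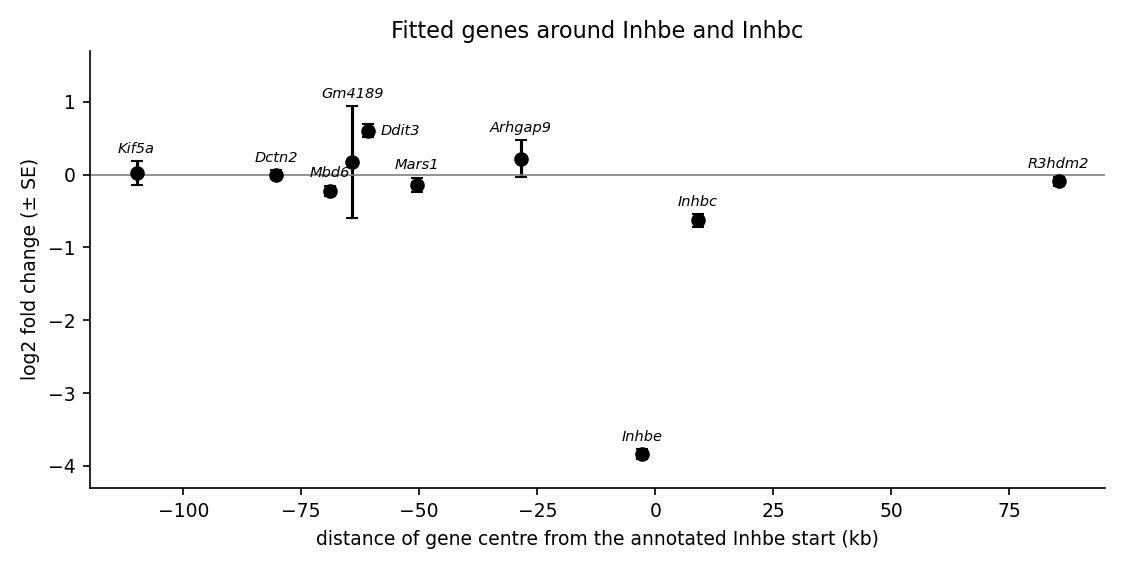
Fitted log2 fold change (vertical axis, S100a16KO+/- minus WT) with its standard error for the tested genes within 100 kb of Inhbe or Inhbc, against the distance of the gene's centre from the annotated Inhbe start in kb. Inhbe (-3.84) lies alone, with Inhbc (-0.63) next to it and Mars1 (-0.14) and R3hdm2 (-0.09) near 0.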

How the data were processed

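RNA of primary hepatocytes from alcohol-fed mice was compared between 3 WT and 3 S100a16KO+/- libraries. Poly(A) RNA was made into strand-specific paired-end libraries with molecular identifiers. The submitters' processing notes list cutadapt 1.9, HISAT2 2.0.4, UMI-tools, StringTie 1.3.4d, DESeq2, edgeR and mm10. For each gene and library the authors deposited an estimated count, not scaled for depth, and an FPKM value, scaled for length and depth. Whole-number estimated counts were fitted with edgeR 4.0.16 (R 4.3.3; TMM, filterByExpr, robust quasi-likelihood, genotype only, two-sided), with Benjamini-Hochberg adjustment over 15957 genes; CPM is TMM-scaled. Depth and the limit for a count of 0 are given with the results. The fits were tested on simulated counts.

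The genes and lists described were chosen with earlier results of these data known, so the 10 genes have no p-values. Other genes named are, per list, the called genes averaging 1 FPKM or more, at most 4 per direction by fold change, the most abundant gene, the 5 profiles most like Inhbe and tested genes within 100 kb of Inhbe or Inhbc. Smad2, Smad3, Smad4, Tgfbr2, Bmpr2, Id1, Furin, Atf4, Ccn2 and Smad7 were named after their values were seen. So were Wfikkn1, Alb, Nupr1, Chac1, Asns, Sesn2 and Trp53. Alternatives were the replicate block, each library left out, other filters and scalings, DESeq2 1.42.0, limma 3.58.1 on log2(FPKM + 1) and log2(FPKM + 0.1), and counts divided by 4. WT replicate 1 and S100a16KO+/- replicate 2, with the lowest TMM factors (0.951 and 0.948), were left out together in an alternative chosen after seeing the data. Same-numbered libraries did not deviate together (r = -0.0472, -0.0237 and 0.0518), so numbers were not taken as pairs.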

Additional observations from a re-analysis of the deposited data

How the results depend on the processing

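None of the member log2 fold changes reversed in any of the alternatives that fitted them. Inhbb and Acvr2b averaged under 1 FPKM and were not part of the limma fits. Over the fits that each left out 1 library, Inhbe ranged from -3.90 to -3.80, Fst from 2.63 to 2.79, Gdf15 from -1.53 to -1.41, Inhbc from -0.72 to -0.52, Inhbb from 0.57 to 0.76, Acvr1b from -0.46 to -0.36, Acvr2a from -0.38 to -0.21 and Acvr2b from 0.08 to 0.24. Inhba ranged from -1.50 to -1.41 over the same fits. Limma on log2(FPKM + 1) gave the smallest difference for Inhbe (-3.40), Fst (1.83) and Inhba (-0.81). The Inhba difference was then under 2-fold. Of the 30 called pathway genes, 21 rose and 9 fell. The number that fell was 3 with limma on log2(FPKM + 1) or log2(FPKM + 0.1), which gave 2228 and 2208 calls over all genes against 3643, among fewer genes tested. Leaving out each library gave 17 to 20 that rose, 3 to 8 that fell and 2734 to 3302 over all genes. The thresholds of the study on the edgeR fit, which change both the p (unadjusted) and the fold change limit (at least 2), gave 7, 1 and 721. The replicate block gave 20 that rose, 6 that fell and 3082 over all genes, and Pcsk4, Pcsk7, Ski and Mbd6 were no longer called. Both limma fits also lost Acvr1, Chrd, Mbd6, Pcsk4, Pcsk7, Ski, Smad5 and Tgfbr1, and the cause was not tested. Without WT replicate 1 and S100a16KO+/- replicate 2 together the numbers were 17, 8 and 3412, and Chrd, Ski, Smad5 and Smad7 were no longer called. The fold changes of low genes are limited by depth, as for Fstl3.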
